A study of Mus musculus with 6 samples.

Results

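RNA sequencing of infarcted mouse heart was examined for 10 genes of the canonical Wnt pathway that act on, or together with, beta-catenin. They were taken by name: Ctnnb1, Apc, Axin1, Gsk3a, Gsk3b, Csnk1a1, Lrp5, Lrp6, Tcf7l1 and Tcf7l2, which are 10 of the 36047 genes with a transcript in the files. All 10 passed the filter on low counts, under which 20094 genes were tested. The mice were C57BL6, 12 weeks old, and all underwent ischemia and reperfusion (I/R) by occlusion and release of the left anterior descending artery. Of these, 3 received LGK974 by daily oral gavage and 3 received DMSO, the vehicle, and the infarct area was taken 48 h after I/R, with 1 library for each mouse. No uninjured heart was among the libraries analysed here, so every value describes injured tissue. The comparison asks whether blocking Wnt secretion changed the RNA level or the transcript make-up of the genes that receive and carry the signal.

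LGK974 inhibits Porcupine, the enzyme that attaches the lipid that Wnt proteins need in order to be secreted. In the absence of Wnt, beta-catenin in the cytoplasm is held by the destruction complex, in which Axin and Apc are the scaffolds and the kinases CK1 alpha (Csnk1a1) and GSK3 (Gsk3a, Gsk3b) phosphorylate it, and the phosphorylated protein is ubiquitinated and degraded. When Wnt binds a Frizzled receptor and the co-receptor Lrp5 or Lrp6, the complex is recruited to the membrane and inhibited, beta-catenin accumulates, enters the nucleus and binds transcription factors of the Tcf/Lef family, among them Tcf7l1 and Tcf7l2. In cardiomyocytes beta-catenin also links cadherins to the actin cytoskeleton at the intercalated disc. Much of this control acts on protein phosphorylation and stability, which RNA counts do not measure.

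3 stretches of coding sequence show where the members meet and how their transcripts differ. The first is exon 3 of Ctnnb1 (GRCm38 chr9:120950522-120950749, plus strand, 228 bases), which codes for the residues that CK1 alpha and GSK3 phosphorylate. Its codons 33, 37, 41 and 45 are in capitals, counted from the start codon of transcript Ctnnb1-201. They read TCT, TCT, ACC and TCC, codons for serine, serine, threonine and serine.
Ctnnb1 exon 3: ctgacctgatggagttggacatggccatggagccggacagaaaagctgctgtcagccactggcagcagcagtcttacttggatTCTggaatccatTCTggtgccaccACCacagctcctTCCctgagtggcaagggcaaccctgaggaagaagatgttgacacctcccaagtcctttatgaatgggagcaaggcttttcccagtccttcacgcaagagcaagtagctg
The other two are exons that set the alternative transcripts of a kinase and of a scaffold apart. Exon 9 of the 12 exons of Gsk3b-202 (GRCm38 chr16:38217113-38217151, plus strand) adds 39 bases, 13 codons, to the kinase, and exon 9 of the 11 exons of Axin1-201 (GRCm38 chr17:26192516-26192623, plus strand) adds 108 bases, 36 codons, to the scaffold. Capitals mark the exon, and the 12 bases in lower case on either side belong to the neighbouring exons of the same transcript.
Gsk3b exon 9: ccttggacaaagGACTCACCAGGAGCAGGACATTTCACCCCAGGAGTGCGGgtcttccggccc
Axin1 exon 9: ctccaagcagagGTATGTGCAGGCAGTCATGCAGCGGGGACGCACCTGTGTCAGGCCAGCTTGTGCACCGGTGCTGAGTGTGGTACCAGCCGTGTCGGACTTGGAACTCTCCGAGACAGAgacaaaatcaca

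Depth was 41579787 to 80398211 estimated counts per library, of which mitochondrial genes took 28.1 to 53.6%. DMSO replicate 1 stood apart from the other 5 libraries. It lay at 172.6 on the first principal component, where the others lay between −91.7 and 45.2. Receptor genes of smell and taste, which the heart is not known to use, had a median of 35.7 counts per kilobase in it and 0.873 to 12.1 in the others. That level equalled 1.5% (Csnk1a1) to 15.7% (Tcf7l1) of the members' own counts per kilobase in DMSO replicate 1. The log2 fold changes of the members are therefore given with and without this library. The 12 cardiomyocyte markers summed to 42637 to 67667 CPM (counts scaled to the size of each library) in all libraries, so the defining genes of heart muscle were present.

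For none of the 10 members was a difference between the groups detected that was larger than the spread between libraries, 1 for each mouse. In the quasi-likelihood test of edgeR, adjusted by Benjamini-Hochberg over all genes tested, 0 of the 10 passed an adjusted p of 0.05, and the adjusted p-values lay between 0.554 and 0.936. The same test called 0 of all 20094 genes (0%). At an unadjusted p of 0.05 it picked 0 of the 10 members against 2699 of all genes (13.4%), and the CPM values of the 2 groups overlapped in all 10 members, whereas they did not overlap in 3617 of all genes (18.0%). DESeq2 called 0 of the 10 (adjusted p-values 0.644 to 0.991) and 289 of the 23595 genes to which it gave an adjusted p (1.22%). Of the members, 6 were higher and 4 lower in the LGK974 group, none past the test. The median log2 fold change of the members was 0.05, that of all genes tested −0.13. Relative to this median of all genes, 9 of the 10 members were shifted upward, by 0.025 (Lrp5) to 0.29 (Gsk3b), and Tcf7l1 by −0.13. The shift depended on DMSO replicate 1, without which the median of the members was −0.08, below that of all genes at −0.02. By mean CPM the members lay at percentiles 63.0 to 97.5 of the genes tested, so they are not typical of all genes in level.

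The 95% intervals of the fold changes show how large a difference the test of all 6 libraries could leave undetected. On estimated counts, over the 10 members, they reached at most 1.58-fold upward, for Ctnnb1, and at most 1.70-fold downward, for Tcf7l1. Other settings reached further, since without DMSO replicate 1 the interval of Tcf7l1 extended to a log2 fold change of −0.84, and on counts scaled from TPM Axin1 had a log2 fold change of 0.81. The 3 LGK974 values lay inside the range of the 3 DMSO values in 8 of the 10 members, the exceptions being Axin1 and Gsk3b. The DMSO range was the wider in 9 of the 10, because DMSO replicate 1 was the lowest of all 6 libraries in 8 members and DMSO replicate 3 the highest in 8 members. Without DMSO replicate 1, 3 members were higher and 7 lower, with a median log2 fold change of −0.08 beside −0.02 over all genes, and again 0 of the 10 passed an adjusted or an unadjusted p of 0.05, where 2041 of 18547 genes passed the unadjusted one (11.0%).

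**Figure D1:**
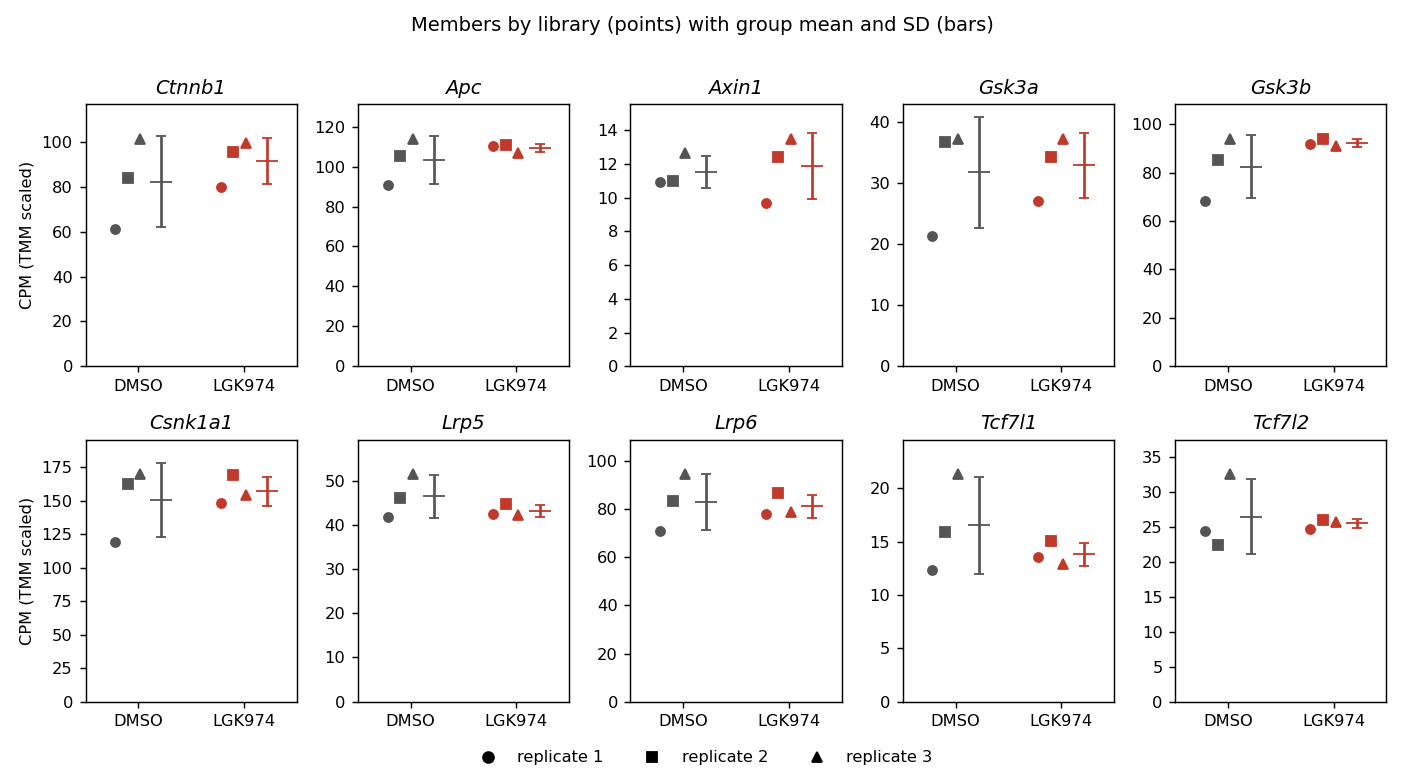
CPM (TMM scaled, axis from 0) of each of the 10 members in the 3 DMSO (grey) and 3 LGK974 (red) libraries, with group mean and SD as bars and replicate numbers as symbols. The groups overlap in every panel, and the circle of DMSO replicate 1 is the lowest point in 8 of the 10.

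Ctnnb1 (ENSMUSG00000006932, GRCm38 chr9:120929216-120960507, plus strand, protein-coding) encodes beta-catenin itself. It measured 79.9, 95.5 and 99.4 CPM in LGK974 replicates 1, 2 and 3, and 61.3, 84.1 and 101.5 CPM in DMSO replicates 1, 2 and 3. The lowest and the highest library were both from the DMSO group, and the group means were 91.6 ± 10.3 (SD, n = 3) and 82.3 ± 20.2 (SD, n = 3). The log2 fold change was 0.15 (95% interval −0.35 to 0.66, standard error, SE, 0.216, adjusted p = 0.727). Without DMSO replicate 1 it was −0.01 (interval −0.40 to 0.39), and without DMSO replicate 3 it was 0.44. Exons of Ulk4 on the opposite strand cover 759 of the 5192 exon bases of Ctnnb1, and with 95.8 to 214 counts per library Ulk4 was far below Ctnnb1, at 2440 to 6785 counts.

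The scaffolds of the destruction complex gave overlapping values in the groups. Apc (ENSMUSG00000005871, GRCm38 chr18:34220924-34322552, plus strand) gave 110.3, 110.6 and 106.8 CPM under LGK974 and 90.6, 105.1 and 114.0 CPM under DMSO. The 3 LGK974 mice were within 4 CPM of each other and inside the DMSO range, and the log2 fold change was 0.08 (95% interval −0.29 to 0.45, SE 0.159, adjusted p = 0.810). Axin1 (ENSMUSG00000024182, GRCm38 chr17:26138688-26195811, plus strand), the member with the lowest CPM, gave 9.71, 12.4 and 13.5 CPM under LGK974 and 10.9, 11.0 and 12.6 CPM under DMSO. Here the lowest and the highest library were both LGK974, and the log2 fold change was 0.04 (95% interval −0.39 to 0.47, SE 0.185, adjusted p = 0.923). Without DMSO replicate 1 the values were 0.01 for Apc and 0.02 for Axin1, and without DMSO replicate 3 they were 0.27 and 0.22.

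The kinases that phosphorylate beta-catenin overlapped between the groups as well. Csnk1a1 (ENSMUSG00000024576, GRCm38 chr18:61555274-61590061, plus strand), whose product CK1 alpha places the priming phosphate, had the highest CPM of the members, with 148, 169 and 154 CPM under LGK974 and 119, 162 and 170 CPM under DMSO. Its log2 fold change was 0.06 (95% interval −0.39 to 0.51, SE 0.193, adjusted p = 0.890), and −0.07 without DMSO replicate 1. Gsk3b (ENSMUSG00000022812, GRCm38 chr16:38089001-38246084, plus strand) gave 91.7, 94.1 and 91.2 CPM under LGK974, values closer together than the 68.3, 85.2 and 93.8 CPM under DMSO. It had the highest log2 fold change of the 10 members, 0.16 (95% interval −0.23 to 0.56, SE 0.170, adjusted p = 0.629), and this was 0.06 without DMSO replicate 1 and 0.37 without DMSO replicate 3. Gsk3a (ENSMUSG00000057177, GRCm38 chr7:25228258-25237851, minus strand), the paralog of Gsk3b, gave 27.1, 34.3 and 37.3 CPM under LGK974 and 21.3, 36.8 and 37.3 CPM under DMSO. Replicate 1 was the lowest library in each group, the log2 fold change was 0.05 (95% interval −0.52 to 0.61, SE 0.244, adjusted p = 0.934), and without DMSO replicate 1 it was −0.16. An antisense gene shares 820 of the 2900 exon bases of Gsk3a, and whether the counting used strand is not given in the sources used here.

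The co-receptors, through which Frizzled-bound Wnt reaches the complex, also overlapped between the groups. Lrp5 (ENSMUSG00000024913, GRCm38 chr19:3584828-3686564, minus strand) gave 42.5, 44.7 and 42.3 CPM under LGK974 and 41.7, 46.1 and 51.5 CPM under DMSO, a log2 fold change of −0.11 (95% interval −0.44 to 0.23, SE 0.146, adjusted p = 0.725). Lrp6 (ENSMUSG00000030201, GRCm38 chr6:134446476-134566965, minus strand) gave 77.9, 86.7 and 78.9 CPM under LGK974 and 71.1, 83.4 and 94.5 CPM under DMSO. Its log2 fold change was −0.03 (95% interval −0.42 to 0.35, SE 0.166, adjusted p = 0.936), and without DMSO replicate 1 the values were −0.16 for Lrp5 and −0.12 for Lrp6. In both genes all 3 LGK974 mice lay inside the DMSO range.

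Of the transcription factors, Tcf7l1 was the member with the lowest log2 fold change. Tcf7l1 (ENSMUSG00000055799, GRCm38 chr6:72626378-72789254, minus strand), known mainly as a repressor that beta-catenin relieves, gave 13.6, 15.0 and 12.9 CPM under LGK974 and 12.3, 15.9 and 21.3 CPM under DMSO. DMSO replicate 3 was the only library above 16 CPM, and the log2 fold change was −0.26 (95% interval −0.76 to 0.25, SE 0.218, adjusted p = 0.554). Without DMSO replicate 1 both remaining DMSO mice lay above all 3 LGK974 mice, at a log2 fold change of −0.42 (unadjusted p = 0.0512, adjusted p = 0.456 by edgeR), and without DMSO replicate 3 it was 0.07. Tcf7l2 (ENSMUSG00000024985, GRCm38 chr19:55741820-55933654, plus strand), which activates target genes when bound by beta-catenin, gave 24.7, 25.9 and 25.7 CPM under LGK974 and 24.4, 22.4 and 32.5 CPM under DMSO. Its log2 fold change was −0.05 (95% interval −0.46 to 0.35, SE 0.173, adjusted p = 0.891), and −0.10 without DMSO replicate 1.

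**Figure D2:**
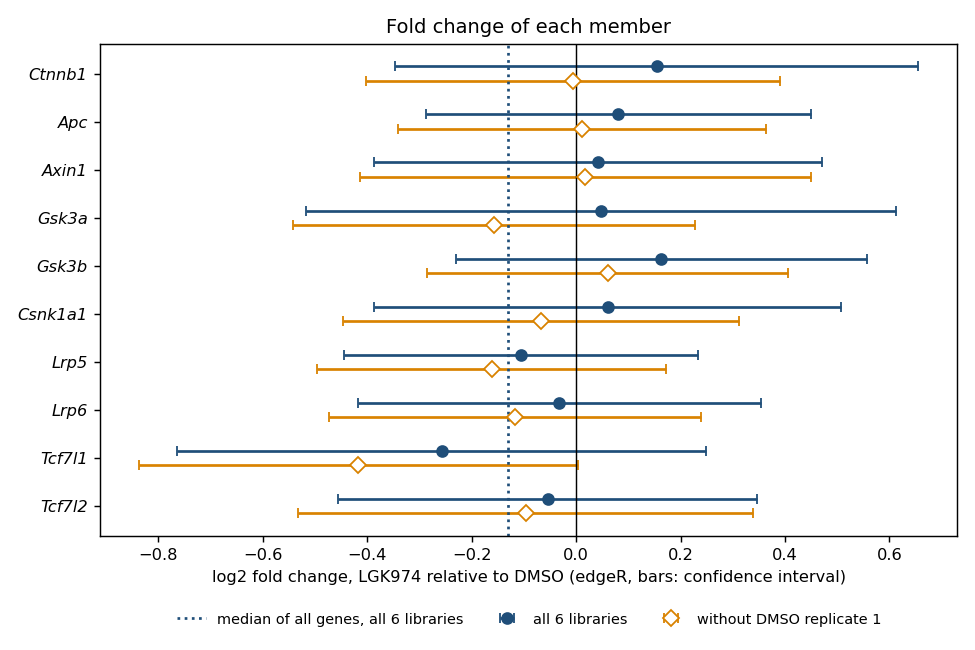
Log2 fold change of each member in the LGK974 relative to the DMSO group from edgeR (points) with 95% intervals (bars), for all 6 libraries (filled circles) and without DMSO replicate 1 (open diamonds). Every interval includes 0, the dotted line marks the median of all genes at −0.13, and the diamonds lie to the left of the circles in all 10 members.

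Levels of different genes were compared per transcript length, for which the TPM values were summed per gene. How the capture kit named in the labels affects such levels was not tested. Csnk1a1 was the most abundant member in each of the 6 libraries (median 73.3 TPM, range 39.1 to 119.6) and Ctnnb1 came second in each (median 29.0 TPM, range 18.1 to 59.3). Gsk3b (18.9 TPM), Apc (18.7), Gsk3a (15.6), Tcf7l2 (15.3) and Lrp6 (13.2) followed by their medians, then Lrp5 (8.12), Tcf7l1 (7.00) and Axin1 (4.51). The ranges over the 6 libraries overlapped between all neighbours in this order. Within each library, however, Csnk1a1 exceeded Ctnnb1, Ctnnb1 exceeded Gsk3b, Tcf7l2 exceeded Lrp6, Lrp6 exceeded Lrp5 and Lrp5 exceeded Tcf7l1 in 6 of 6, while Gsk3a exceeded Tcf7l2 in 2 of 6 and Tcf7l1 exceeded Axin1 in 3 of 6. Axin1 spread the most, from 3.41 to 14.6 TPM. TPM values move with the mitochondrial share of a library, so between the treatments they were set side by side as ratios and shares within a library, and entered a fit in 1 alternative, scaled to counts.

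**Figure D3:**
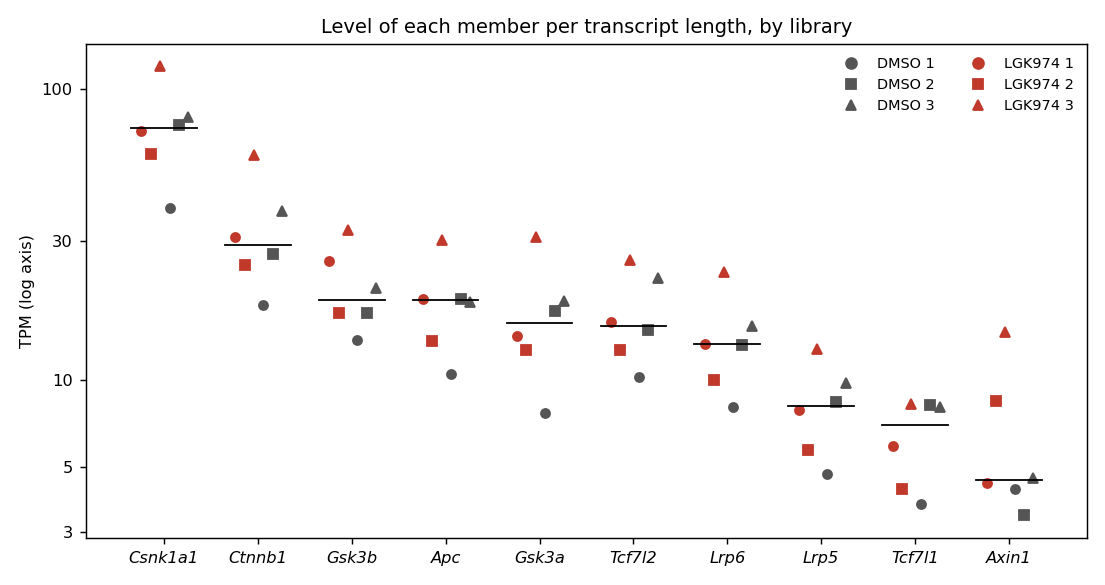
Summed TPM (log axis) of each member in the 6 libraries, ordered by the median over libraries (horizontal lines). Csnk1a1 and Ctnnb1 lead in every library, and LGK974 replicate 3, with the lowest mitochondrial share, has the highest value of every member.

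Ratios within a library do not depend on its scaling, and were formed for 4 pairs of related genes. The ratio of Lrp5 to Lrp6 was 0.595, 0.576 and 0.543 in the LGK974 mice and 0.588, 0.633 and 0.638 in the DMSO mice. The mean log2 ratio under LGK974 minus that under DMSO was −0.12 (exact permutation test, two-sided, p = 0.2, adjusted p = 0.6 over the 4 pairs). The ratio of Tcf7l1 to Tcf7l2 was 0.376, 0.333 and 0.320 under LGK974 and 0.364, 0.553 and 0.360 under DMSO, a log2 difference of −0.28 (exact permutation test, p = 0.3, adjusted p = 0.6). Gsk3a to Gsk3b varied from 0.549 to 1.01 over the 6 mice (difference −0.13, exact permutation test, p = 0.7, adjusted p = 0.9). The ratio of Ctnnb1 to Jup, the gene of its adhesion paralog plakoglobin, lay between 0.410 and 0.564 (difference 0.07, exact permutation test, p = 0.9, adjusted p = 0.9). None of the 4 ratios separated the groups when all 6 mice were included, and with 3 against 3 mice the smallest p that this exact permutation test allows is 0.1. The log2 differences without DMSO replicate 1 were −0.15 for Lrp5 to Lrp6, −0.38 for Tcf7l1 to Tcf7l2, −0.39 for Gsk3a to Gsk3b and 0.18 for Ctnnb1 to Jup, and the ratio of Lrp5 to Lrp6 then lay lower in all 3 LGK974 mice than in the remaining 2 DMSO mice.

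The 10 members have 84 transcripts in the files, of which 78 had counts and 65 passed the filter. Tested per transcript, 35 were higher and 30 lower under LGK974, and 0 of the 65 passed an adjusted p of 0.05 (lowest 0.849), as did 0 of all 59297 transcripts (0%). At an unadjusted p of 0.05, 1 of the 65 was picked, below the 3144 of all transcripts (5.30%). That transcript was Ctnnb1-209, a retained-intron transcript of 2359 bases named here because of its value. It keeps 475 bases of the intron after exon 10 (GRCm38 chr9:120955973-120956447) and does not contain the last exons of Ctnnb1-201. Its level was 9.42, 10.7 and 8.04 CPM under LGK974 and 3.37, 4.93 and 6.22 CPM under DMSO. All 3 LGK974 mice were above all 3 DMSO mice, at a log2 fold change of 0.95 (SE 0.300, unadjusted p = 0.016, adjusted p = 0.849 by edgeR), and without DMSO replicate 1 the change was 0.75 (adjusted p = 0.818). Without LGK974 replicate 2 it was 0.85 and no longer picked (unadjusted p = 0.057). As a share of all Ctnnb1 counts it made up 11.3, 11.1 and 8.16% in the LGK974 and 5.60, 5.97 and 6.10% in the DMSO mice. The separation of the groups and these shares come from the same counts by which the transcript was picked, so neither is further support.

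The main coding transcripts of Ctnnb1 were Ctnnb1-201, with 65.1 to 83.3% of its counts, and Ctnnb1-214, which has the same reading frame with shorter ends. Ctnnb1-214 held 12.2, 14.8 and 4.79% under LGK974 and 16.6, 17.0 and 20.6% under DMSO. This share was lower by 7.49 points with no overlap between the groups, and by counts it was the only 1 of the 17 transcript shares compared, from 7 genes, to reach the smallest p of the design (exact permutation test, two-sided, p = 0.1, adjusted p = 1 over the 17). Where groups do not differ, 10% of single values do not overlap in 3 against 3, and 1 of 17 is no excess over that. The difference was −8.21 points without DMSO replicate 1 and −4.60 points without LGK974 replicate 3. As a share of the Ctnnb1 TPM the groups overlapped, with 12.3, 15.9 and 5.11% under LGK974 and 14.7, 19.0 and 20.8% under DMSO (exact permutation test, p = 0.2). Exon 3, with the phosphorylated codons printed above, is in 6 transcripts of Ctnnb1. They held 97.3, 96.7 and 97.6% of its counts under LGK974 and 89.8, 97.8 and 96.8% under DMSO, so that DMSO replicate 1 was the only library under 96%. Of the Ctnnb1 TPM they held less, 85.2, 89.8 and 86.8% under LGK974 and 72.8, 89.1 and 85.1% under DMSO (exact permutation test, p = 0.4).

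Among the kinases, Gsk3b-202 with the additional exon shown above held 15.4, 11.2 and 11.1% of the Gsk3b counts under LGK974 and 9.49, 13.2 and 11.5% under DMSO (exact permutation test, p = 0.7). Per length its part was larger, 28.2 to 34.8% of the Gsk3b TPM under LGK974 and 20.0 to 38.8% under DMSO, because Gsk3b-201 has 8303 bases and Gsk3b-202 has 1750. Gsk3b-201 held 74.8 to 84.0% of the counts over all libraries. The Csnk1a1 counts were divided between Csnk1a1-204 (33.3 to 38.2%), Csnk1a1-201 (25.5 to 30.7%) and Csnk1a1-206 (9.36 to 12.7%), in the same order in all 6 mice. Gsk3a was almost all Gsk3a-201, at 88.7 to 95.0%.

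The estimated transcript shares of the scaffolds varied between libraries. Axin1-201, which carries the additional exon, held 37.0, 15.8 and 33.2% of the Axin1 counts under LGK974 and 32.3, 32.5 and 30.2% under DMSO (exact permutation test, p = 1). Axin1-203, which lacks it, held 29.4% in LGK974 replicate 1 and 60.2 to 77.0% in the other 5 libraries, a mean difference of −9.23 points (exact permutation test, p = 0.8). Axin1-202 held 32.2% in LGK974 replicate 1 and at most 4.21% in the other 5. Of the Axin1 TPM, Axin1-203 held 23.6, 29.6 and 34.0% under LGK974 and 38.1, 73.5 and 66.7% under DMSO, so that by this measure the groups did not overlap (difference −30.4 points, exact permutation test, p = 0.1). Short transcripts weigh more in TPM. Axin1-205, of 291 bases, had 11.8, 47.4 and 33.4 counts under LGK974 and 11.9, 0 and 0 under DMSO. Its part in this difference was not tested. With 435 to 863 counts of Axin1 per library, these shares rest on few reads. Apc-202 held 48.2 to 81.6% of the Apc counts, and Apc-203 held 32.0% in LGK974 replicate 1 and 0% in DMSO replicate 1. These transcripts are near in length, at 12811 and 12346 bases, and all coding transcripts of Apc together held 80.2 to 86.4%. How the program divided shared reads between Apc-202 and Apc-203 was not tested. Apc-205, annotated as a target of nonsense-mediated decay, held 8.74 to 14.8%.

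The transcript shares of Lrp5 set DMSO replicate 1 apart. Lrp5-204, a nonsense-mediated decay transcript of 8893 bases, held 49.3% there and 19.9 to 31.4% in the other 5 libraries, while the coding Lrp5-201 held 42.5% there and 63.9 to 74.9% elsewhere. Over all 10 members together, coding transcripts held 82.2% of the counts in DMSO replicate 1 and 86.3 to 88.7% elsewhere, where for all nuclear protein-coding genes the range was 87.7 to 88.9%. Lrp6 and Tcf7l1 were carried by 1 transcript each, Lrp6-201 with 85.6 to 92.3% and Tcf7l1-201 with 85.4 to 93.0%. The Tcf7l2 counts were spread over many, with 12.3 to 40.7% on Tcf7l2-201, 7.34 to 12.4% on Tcf7l2-222 and 6.67 to 19.1% on Tcf7l2-206, a retained-intron transcript.

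**Figure D4:**
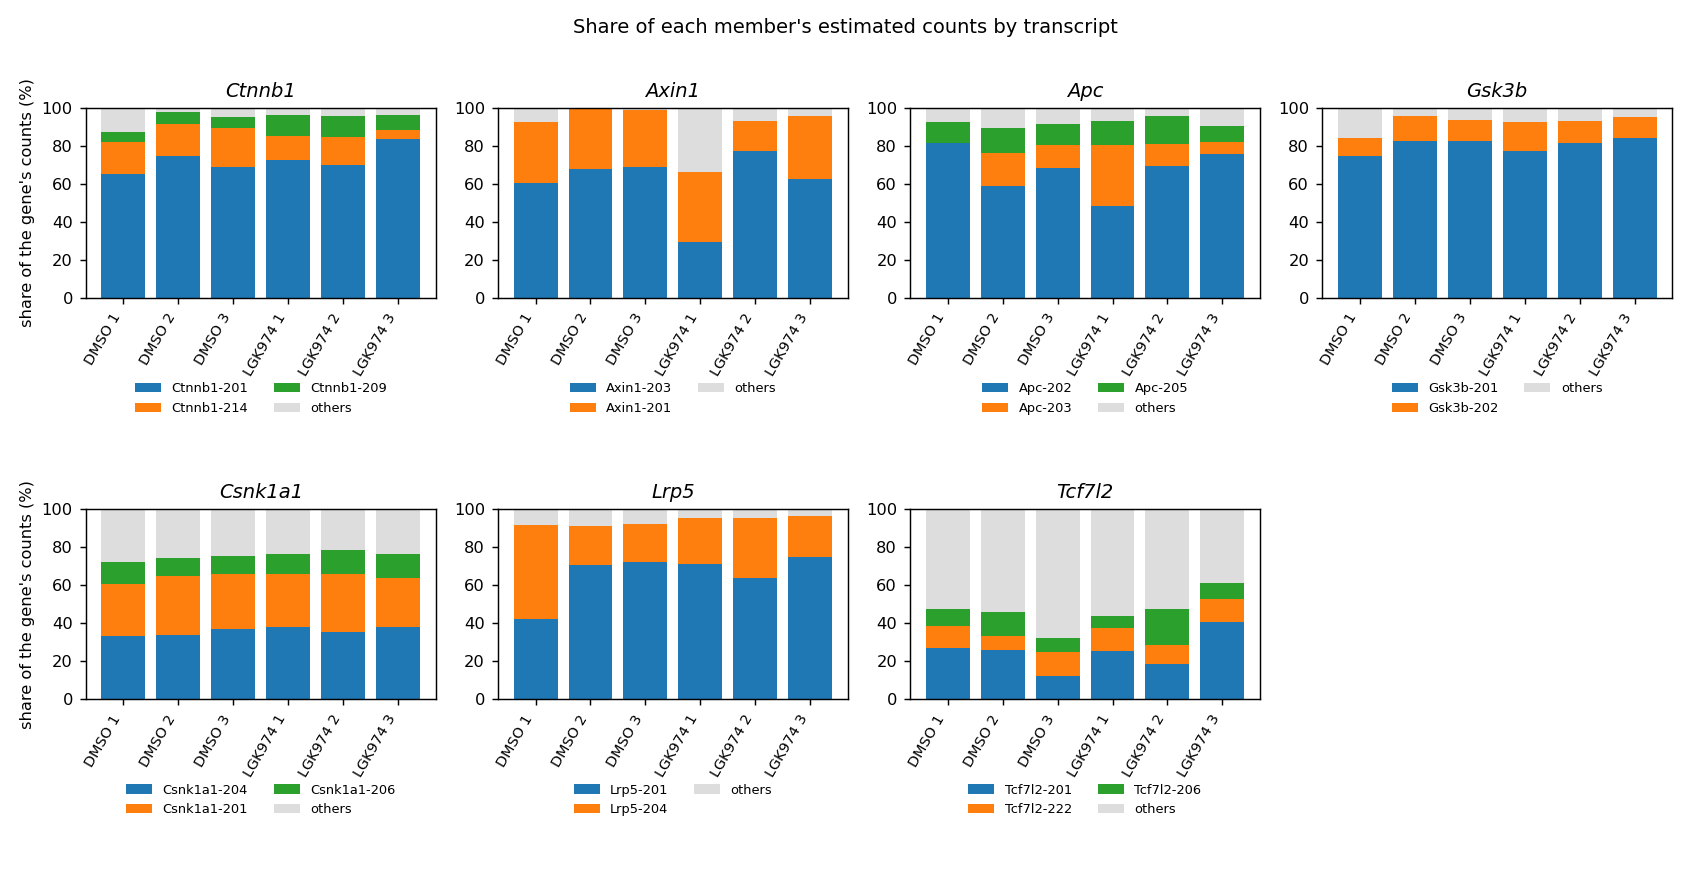
Share of the estimated counts of 7 members taken by each named transcript (stacked bars, percent, axis from 0 to 100) in the 3 DMSO and 3 LGK974 libraries, with all others in light grey. Ctnnb1-209, picked by its p, takes 5.60 to 6.10% in DMSO and 8.16 to 11.3% in LGK974, and Lrp5-204 reaches 49.3% in DMSO 1.

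Other genes of the canonical pathway were described in the same fit, as counts beside the share of all genes. Of all genes tested, 6.26% had an unadjusted p under 0.05 and were higher, and 7.18% had one and were lower. In 10.7% all LGK974 values lay above, and in 7.27% below, all DMSO values. Of the 5 lists, 0 genes passed an adjusted p of 0.05 in edgeR or DESeq2. Of the 11 receptor-proximal genes (Dvl1 to Dvl3, Frat and casein kinase genes, Caprin2), 0 passed an unadjusted p of 0.05 and the median log2 fold change was 0.05. Of the 16 other genes of the destruction complex and of beta-catenin turnover, 10 were higher, 6 lower and 0 passed, with a median of 0.06. This list holds Axin2, the inducible paralog of Axin1 and a target gene of beta-catenin. Axin2 gave 2.23, 1.87 and 1.79 CPM under LGK974 and 2.71, 4.12 and 2.78 CPM under DMSO, so that all LGK974 mice lay below all DMSO mice (log2 fold change −0.71, SE 0.334, unadjusted p = 0.068, adjusted p = 0.371 by edgeR). Without DMSO replicate 1 its log2 fold change was −0.79 (unadjusted p = 0.033 by edgeR). In that fit 11.0% of all genes passed an unadjusted p of 0.05. When each library was left out in turn, Axin2 lay between −0.82 (without LGK974 replicate 1) and −0.50 (without DMSO replicate 2). In none of these fits did Axin2 pass an adjusted p of 0.05. Ppp2r5a, a phosphatase subunit, stood at 336 CPM in DMSO replicate 1 and at 95.3 to 111 CPM in the other 5 libraries.

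Of the 19 nuclear partners, 1 passed an unadjusted p of 0.05, Pygo1, a co-activator of beta-catenin, with 15.9, 22.9 and 12.4 CPM under LGK974 and 27.9, 21.5 and 33.2 CPM under DMSO (log2 fold change −0.69, SE 0.260, adjusted p = 0.368). The log2 fold change of Pygo1 was −0.67 without DMSO replicate 1 and −0.41 without DMSO replicate 3, where it no longer passed. When DMSO replicate 1 was left out, 4 of the 19 passed, all lower, where 2041 of 18547 genes passed (11.0%). Without LGK974 replicate 1, 0 of the 19 passed, where 1526 of 18775 genes did. Without LGK974 replicate 3, 0 of the 19 passed, where 821 of 19712 genes did. Of the 10 adhesion partners 0 passed, with Ctnna3, a catenin of cardiomyocyte junctions, at 36.1 ± 11.6 CPM (SD, n = 3) under LGK974 and 53.2 ± 12.4 (SD, n = 3) under DMSO (log2 fold change −0.56, adjusted p = 0.377). Ctnna3 was at −0.71 without DMSO replicate 1, and 1 of the 10 then passed, near the 11.0% of all genes in that fit. The negative feedback and target genes had the lowest median of the 5 lists, −0.46 over 12 genes. Their list shares Axin2 with the destruction complex and turnover list, and Tcf7 and Lef1 with the nuclear partners. This median was −0.11 without DMSO replicate 1, above the −0.16 of the nuclear partners and the −0.15 of the adhesion partners. Of the 12, 2 were higher and 1 lower at an unadjusted p of 0.05, and 1 in all passed without LGK974 replicate 1 or 3. Nkd2, an inhibitor that binds Dishevelled, gave 4.29, 4.63 and 4.87 CPM under LGK974 and 2.24, 2.19 and 2.16 CPM under DMSO (log2 fold change 1.06, SE 0.257, adjusted p = 0.368). Ccnd1 (cyclin D1) had a log2 fold change of 0.69 (SE 0.250, adjusted p = 0.368), and Znrf3, a ubiquitin ligase that removes Frizzled from the membrane, one of −0.46 (SE 0.178, adjusted p = 0.368). The log2 fold changes without DMSO replicate 1 were 1.09 for Nkd2, 0.49 for Ccnd1 and −0.39 for Znrf3. In none of the 6 edgeR fits that left out 1 library did Znrf3 pass an unadjusted p of 0.05.

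**Figure D5:**
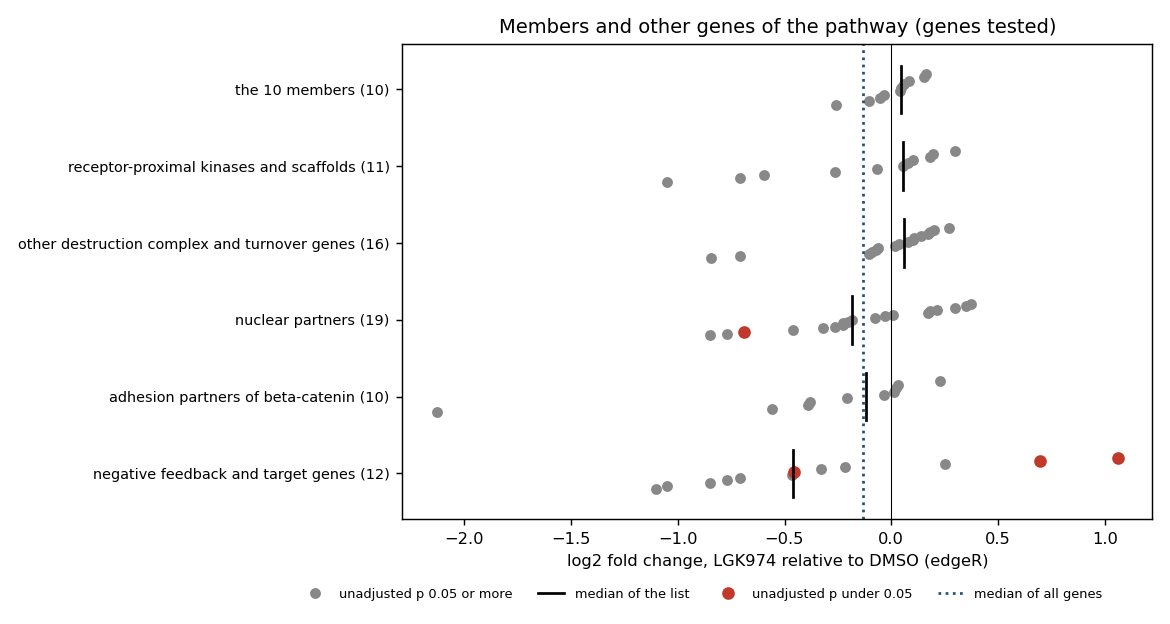
Log2 fold change (LGK974 relative to DMSO, edgeR) of the 10 members and of the genes tested in 5 lists of the pathway, 1 point for each gene in each list, with medians as black bars and the median of all genes as a dotted line at −0.13. Points in red have an unadjusted p under 0.05: none of the members, 1 nuclear partner and 3 negative feedback and target genes.

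Markers of the cell types in the tissue were summed in the same libraries. Of all genes tested, 6.26% were higher and 7.18% lower at an unadjusted p under 0.05. In 10.7% all LGK974 values lay above all DMSO values, and DESeq2 called 1.22% of the genes to which it gave an adjusted p. All 11 leukocyte markers had higher means under LGK974, 10 without overlap between the groups and 10 with an unadjusted p under 0.05, with 0 past an adjusted p of 0.05 in edgeR and 7 in DESeq2. Their summed level was 485 to 616 CPM under LGK974 and 213 to 303 CPM under DMSO. All 9 fibroblast markers had higher means, 4 with an unadjusted p under 0.05 and 4 past an adjusted p of 0.05 in DESeq2, at 3441 to 5989 and 1696 to 2494 CPM. Of the 12 cardiomyocyte markers 11 had lower means, none of them past an unadjusted p of 0.05, at a summed 42637 to 60528 and 48938 to 67667 CPM. The other, Actc1 (cardiac actin), had a log2 fold change of 0.86 (unadjusted p = 0.025, adjusted p = 0.368 by edgeR and 0.045 by DESeq2). When DMSO replicate 1 was left out, 10 of the leukocyte and 4 of the fibroblast markers had an unadjusted p under 0.05, all higher. So did 3 of the cardiomyocyte markers, Actc1 higher, Ckm and Myl3 lower. The share of all genes in that fit was 11.0%. The 8 endothelial markers (523 to 602 and 441 to 635 CPM) and the 5 pericyte and smooth muscle markers (528 to 697 and 477 to 734 CPM) overlapped. The other leukocyte lists did not all go the same way. All 4 T cell markers were lower under LGK974, at 14.3 to 18.7 and 15.2 to 31.1 CPM. Of the 3 B cell markers 1 was higher and 2 lower, at 1.45 to 2.32 and 1.60 to 6.84 CPM. Of the 4 neutrophil markers tested 2 were higher and 2 lower, at 31.0 to 43.0 and 39.6 to 76.5 CPM. In each of these lists DMSO replicate 1 had the highest sum. The other DMSO mice summed to 15.2 and 19.5 CPM for T cell, 1.72 and 1.60 for B cell, and 39.6 and 43.4 for neutrophil markers. The median log2 fold change of the T cell markers was −1.31 with all libraries and −0.29 without DMSO replicate 1. Ly6g and Retnlg were at 0 in at least 1 library. Among T cell, B cell and neutrophil markers, 1 had an unadjusted p under 0.05 in edgeR, a neutrophil marker that was lower. Without DMSO replicate 1, 0 had. In such bulk tissue fewer cells of a type and less RNA per cell cannot be told apart, and the part of these markers in the values of the members was not tested.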

How the data were processed

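RNA of the infarct area of 3 LGK974-treated and 3 DMSO-treated mice was sequenced on a HiSeq2000 after ribosomal RNA depletion and library preparation with a capture kit, both named in the labels. Kallisto, on an index of GRCm38, gave the estimated counts and TPM values that the authors deposited for 118489 transcripts per library. The version of Kallisto and the trimming of reads are not given in the sources used here. The deposited TPM values, per transcript length and library sum, served for levels, ratios, transcript shares beside those of counts, and counts scaled from TPM as an alternative.

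Transcripts were joined to genes by identifier with GENCODE M21 (GRCm38), which matched 98.6% of them and 99.6 to 99.7% of the counts. Estimated counts, which need not be whole because reads shared between transcripts are divided by the program, were summed per gene and rounded. Genes reaching 10 counts in 3 or more libraries were tested with edgeR 4.0.16 (R 4.3.3, quasi-likelihood, TMM scaling) with treatment as the sole term, and p-values were adjusted by Benjamini-Hochberg over all genes (threshold 0.05). Transcripts were tested in the same way. DESeq2 1.42.0, the tool of the study, and limma 3.58.1 (voom) were alternatives. The code was tested on simulated data. Shares and ratios were compared with two-sided exact permutation tests over mice. Exon sequences were read from the GENCODE transcripts. Tables used pandas 2.3.3, NumPy 2.4.6 and SciPy 1.17.1, and figures matplotlib 3.10.9, under Python 3.11.15.

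Groups and replicate numbers came from the labels. The genes examined and the lists were chosen with earlier results of these data known. Named were all 10 genes, transcripts with at least 10% of a gene's counts on average or the largest share, up to 3 genes of each pathway list by p, 4 pairs of related genes and the 5 genes with the profile most like that of Ctnnb1. Precision was limited by the spread between mice more than by counting error, since each of the 10 genes had at least 435 counts in every library.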

Additional observations from a re-analysis of the deposited data

How the results depend on the processing

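The number of the 10 genes with an adjusted or unadjusted p under 0.05, and of their transcripts with an adjusted p under 0.05, was 0 under every alternative run. The median log2 fold change of the 10 genes lay between −0.082 and 0.25 when each library was left out in turn, the highest without DMSO replicate 3. Several small fold changes turned sign. With the background of silent receptor genes subtracted, Apc was at −0.025, Axin1 at −0.0092, Gsk3a at −0.040 and Csnk1a1 at −0.060. On counts scaled from TPM, Lrp6 was at 0.014. Without the filter on low counts, Lrp5 was at 0.032, Lrp6 at 0.10 and Tcf7l2 at 0.081. Transcript Apc-202 was at −0.0081 with DESeq2 and at −0.0096 with the replicate block, and the difference in the share of Gsk3b-201 was −0.53 points by TPM. The cause was not tested. Over all genes the median log2 fold change was −0.13, −0.55 without the filter and −0.75 with DESeq2, which also include genes of few counts. edgeR called 1206 of 34257 genes without the filter, 2 without DMSO replicate 1, and 0 of the 20094 with the filter, where the common dispersion was 0.238 and, without DMSO replicate 1, 0.0825.

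Leaving out each library in turn gave log2 fold changes of 0.011 to 0.27 for Apc, 0.060 to 0.37 for Gsk3b, −0.0015 to 0.22 for Axin1, −0.066 to 0.26 for Csnk1a1, −0.0060 to 0.44 for Ctnnb1, −0.16 to 0.27 for Gsk3a, −0.16 to 0.084 for Lrp5, −0.12 to 0.18 for Lrp6, −0.42 to 0.074 for Tcf7l1 and −0.17 to 0.24 for Tcf7l2. For transcripts they were −0.11 to 0.10 for Apc-202, −0.14 to 1.44 for Apc-203, −0.32 to 0.18 for Axin1-201, −0.41 to 0.22 for Axin1-203, −0.14 to 0.14 for Csnk1a1-201, −0.17 to 0.23 for Gsk3a-201, −0.19 to 0.30 for Lrp5-201, −0.45 to 0.21 for Lrp5-204, −0.084 to 0.16 for Lrp6-201, −0.39 to 0.096 for Tcf7l1-201, −0.30 to 0.52 for Tcf7l2-206 and −0.24 to 0.41 for Tcf7l2-222. Log2 ratio differences were −0.053 to 0.18 for Ctnnb1 to Jup and −0.39 to 0.070 for Gsk3a to Gsk3b. Share differences, in points, were −11.1 to 2.57 for Apc-202, −0.875 to 12.0 for Apc-203, −0.819 to 2.21 for Apc-205, −7.16 to 3.40 for Axin1-201, −19.6 to 4.19 for Axin1-203, −2.28 to 0.195 for Csnk1a1-201, −1.49 to 2.92 for Gsk3b-201, −0.229 to 2.07 for Gsk3b-202, −1.64 to 13.3 for Lrp5-201, −9.12 to 5.60 for Lrp5-204, −1.90 to 4.32 for Tcf7l2-206 and −0.720 to 1.81 for Tcf7l2-222. The log2 fold change of Ctnnb1-209 lay between 0.75 and 1.17.

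Deviations of same-numbered libraries from their group means correlated at 0.475, −0.048 and 0.391 for numbers 1, 2 and 3. Those of differently numbered libraries correlated at −0.518 to 0.10. LGK974 replicate 2 did not correlate best with its own number. Whether the numbers pair the mice is not known, and the main fit has no block. With the replicate block, 0 of the 10 genes passed and their median log2 fold change was 0.054. Over all genes, edgeR with the block picked 3312 at an unadjusted p of 0.05, beside 2699 without it. The lowest adjusted p was 0.053 with the block and 0.368 without it.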

Other observations

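The genes whose CPM profile over the 6 libraries was most like that of Ctnnb1, by the root mean square difference of centred log2 CPM among 16848 protein-coding genes, were Itgb5 (0.02), Mmachc (0.03), Vps51 (0.04), Rbms2 (0.04) and Eef2 (0.04). Of the other 9 genes examined, the nearest was Csnk1a1 at place 501 (0.12) and the farthest Tcf7l1 at place 4505 (0.24). All of these share the libraries and their scaling with Ctnnb1.

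Within Axin1, the retained-intron transcript Axin1-205 had 11.8, 47.4 and 33.4 counts in the LGK974 mice and 11.9, 0 and 0 in the DMSO mice. At a length of 291 bases such counts weigh heavily in TPM, and the log2 fold change of Axin1 was 0.81 on counts scaled from TPM beside 0.04 on estimated counts.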
